A study of Mus musculus with 12 samples.

Results

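The 9 genes described here encode the melanin-making machinery of pigment cells: Tyr, Tyrp1, Dct, Pmel, Mlana, Slc45a2, Oca2, Gpr143 and Slc24a5. They were picked by symbol from a deposited expression table of 55413 genes, because their values divided libraries within a treatment group. Those values therefore chose the genes, and the levels below are a description with no test. The 1 exception is the comparison of cells treated in culture with primed vehicle cells, which the choice did not use. All 9 genes were found, and 9 of 9 had the mean of at least 3 over the 12 libraries that the filter on low values asked for. Slc45a2 reached it only through the libraries in which it was high.

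BALB/c mice, an albino inbred strain, gave the paws, which were digested with collagenase. Cells of 2 to 3 paws were pooled, grown for 5 passages and labelled synovial fibroblasts. All paws had received monosodium urate (MSU) crystals, the crystals of gout. The groups held 3 libraries each. The in vivo group came from primed paws (crystals on day 0 and day 9) of mice given I-BET151, an inhibitor of the BET bromodomain proteins that read acetylated histones, injected daily at 20 mg/kg, starting 1 day ahead of the first crystals. For the in vitro group, primed-paw cells were cultured for 24 h with I-BET151 at 1 µM, and the labels do not say what the mice behind them had received. The primed vehicle group came from primed paws of mice injected without the inhibitor. The non-primed vehicle group came from the opposite paws, which had received crystals on day 9 alone, so that priming always coincided with the left side. Cells were collected for RNA on day 18. Values are regularized log2 (rlog) expression values, from which read depth cannot be recovered, and library depth is unknown. Whether the 3 libraries of a group had separate animals behind them is not labelled, so p-values reflect the spread between these pooled cultures, which may be technical.

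Melanin is made inside melanosomes, organelles related to lysosomes. Tyrosinase starts the pathway by oxidising tyrosine, the related enzymes encoded by Tyrp1 and Dct act further along it, and melanin is laid down on fibrils built from the protein encoded by Pmel. Transporters of the melanosome membrane set the ion balance and pH that tyrosinase needs. The transcription factor MITF switches many of these genes on in melanocytes, cells that derive from the neural crest. The albino coat of BALB/c mice comes from a missense allele of Tyr, and the strain also carries the brown allele of Tyrp1.

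MITF is known to bind a motif called the M-box, whose letters TCATGTG hold the shorter core CATGTG. RefSeq promoter windows (build GRCm38.p6, 250 bases before to 50 after the annotated start) were found for 5 of the 9 genes: Tyr, Tyrp1, Dct, Oca2 and Slc24a5. None was used for Pmel, Mlana, Slc45a2 and Gpr143. The 7-letter motif was searched on both strands and stood in the windows of 4 of these 5 genes, against 3.77% of all 32851 windows of 300 bases. The core stood in all 5 windows, against 14.2% of all windows, and each match to the 7-letter motif is also a match to the core. Dct held 2 matches, and Oca2 held the core alone. The windows below belong to the 3 melanin synthesis enzymes and to the transporter gene Slc24a5, and capitals mark the 7-letter motif on either strand. Tyr is at chr7:87493463-87493762 (minus strand), Tyrp1 at chr4:80833963-80834262 (plus), Dct at chr14:118052197-118052496 (minus) and Slc24a5 at chr2:125067877-125068176 (plus).
Tyr: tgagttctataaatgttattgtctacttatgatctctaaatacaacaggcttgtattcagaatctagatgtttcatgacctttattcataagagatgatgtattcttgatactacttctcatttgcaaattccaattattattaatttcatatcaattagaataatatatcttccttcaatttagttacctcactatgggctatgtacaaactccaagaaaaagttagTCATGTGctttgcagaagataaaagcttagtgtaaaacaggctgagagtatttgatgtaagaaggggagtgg
Tyrp1: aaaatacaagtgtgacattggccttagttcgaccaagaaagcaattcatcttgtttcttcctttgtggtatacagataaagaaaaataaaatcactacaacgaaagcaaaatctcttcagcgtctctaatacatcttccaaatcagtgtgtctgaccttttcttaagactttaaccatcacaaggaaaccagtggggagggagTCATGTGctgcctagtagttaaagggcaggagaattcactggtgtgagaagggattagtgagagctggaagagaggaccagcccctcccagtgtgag
Dct: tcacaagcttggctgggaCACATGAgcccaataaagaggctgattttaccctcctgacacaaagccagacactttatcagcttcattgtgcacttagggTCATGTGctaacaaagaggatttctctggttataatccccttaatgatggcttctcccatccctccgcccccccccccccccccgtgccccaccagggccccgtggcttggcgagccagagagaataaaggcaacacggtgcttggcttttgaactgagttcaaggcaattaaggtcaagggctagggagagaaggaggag
Slc24a5: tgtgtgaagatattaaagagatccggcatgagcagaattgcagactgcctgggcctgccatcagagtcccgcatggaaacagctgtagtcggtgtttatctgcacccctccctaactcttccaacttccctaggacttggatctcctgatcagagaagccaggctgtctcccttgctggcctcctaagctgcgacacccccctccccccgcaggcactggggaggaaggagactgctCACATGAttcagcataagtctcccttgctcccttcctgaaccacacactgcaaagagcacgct
With bases counted from the annotated start of the RefSeq window, the matches centred at -19 in Tyr, -44 in Tyrp1, -229 and -148 in Dct and -10 in Slc24a5. The GENCODE coordinates given below begin Tyrp1 farther upstream, at 80834123, so that its match lies inside the gene on that annotation. A match describes letters in the reference genome and not binding in these cells.

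**Figure D1:**
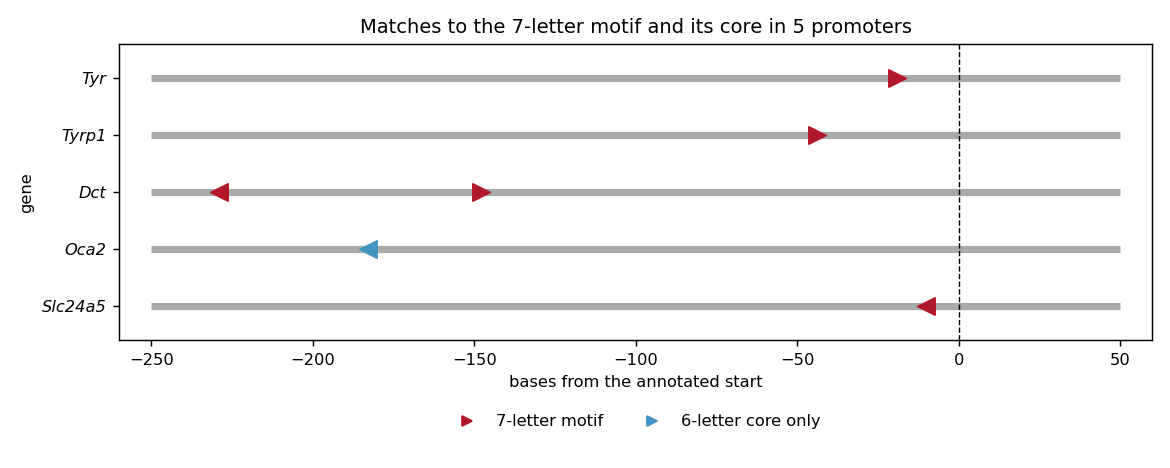
Positions of the 7-letter motif (red) and of the core alone (blue) in the promoter windows of 5 pigment genes, in bases from the annotated RefSeq start (dashed line), with arrowheads pointing along the strand of the match. Tyr, Tyrp1 and Slc24a5 each hold 1 match to the 7-letter motif close to the start, at -19, -44 and -10, whereas both matches in Dct lie farther upstream.

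The libraries did not follow their labels in these genes, and whether labels or cultures were exchanged was not tested. In vivo and non-primed vehicle values below are those of the libraries so labelled. Averaged over the 9 genes, rlog values were 4.11, 13.57 and 13.50 in in vivo libraries 1, 2 and 3. They were 4.95, 4.35 and 4.31 in the in vitro libraries, 5.07, 5.25 and 4.95 in the primed vehicle libraries, and 15.04, 15.07 and 13.62 in the non-primed vehicle libraries. In each of the 9 genes the same 5 libraries, in vivo 2 and 3 and non-primed 1 to 3, lay above the other 7, with the widest step between neighbouring values falling at that point. The step was smallest in Oca2 (3.28 log2 units) and largest in Tyrp1 (11.35). The 10 fibroblast markers, such as Thy1, Pdgfra and Col1a1, moved the other way, with means of 14.20, 8.50 and 8.89 in in vivo libraries 1 to 3, 13.86 to 14.34 in vitro, 14.33 to 14.84 in primed vehicle and 5.92 to 10.51 in non-primed libraries. Their summed level (log2) spanned 13.24 to 19.72 in vivo, 18.89 to 19.88 in vitro, 19.29 to 19.89 in primed vehicle and 10.82 to 15.41 in non-primed libraries. The list of 11 melanocyte markers is these 9 genes with Mitf and Sox10 and so is no separate evidence, with means of 5.47 to 13.72 in vivo, 5.61 to 6.10 in vitro, 6.22 to 6.43 in primed vehicle and 13.78 to 15.04 in non-primed libraries. Macrophage marker means spanned 3.70 to 6.57 in vivo, 7.31 to 8.60 in vitro, 8.17 to 9.06 in primed vehicle and 3.36 to 5.78 in non-primed libraries, and 3 of 5 keratinocyte markers, Krt5, Krt14 and Krt1, were under 1 in every library. Of the other keratinocyte markers, Krt10 stood at 5.98, 1.80 and 2.88 in in vivo libraries 1 to 3, 5.62 to 6.08 in vitro, 6.77 to 7.23 in primed vehicle and 1.38 to 3.10 in non-primed libraries, and Trp63 ranged from 0.86 to 4.53. Means of 5 endothelial markers were 4.42, 2.41 and 2.33 in in vivo libraries 1 to 3, 3.83 to 4.13 in vitro, 4.21 to 4.82 in primed vehicle and 1.79 to 2.37 in non-primed libraries, thus lower in the 5 libraries high in pigment genes. Xist, the RNA of the inactive X chromosome, divided the libraries at the same place, with 13.68, 8.60 and 10.16 in vivo, 13.74 to 14.47 in vitro, 13.83 to 14.50 in primed vehicle and 9.40, 9.59 and 5.02 in non-primed libraries. The part of other cell types in the pigment values was not tested. The labelled cell type, synovial fibroblast, was thus not matched by its markers to the same degree in all libraries. In bulk RNA, fewer cells of a type and less RNA per cell cannot be told apart.

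**Figure D2:**
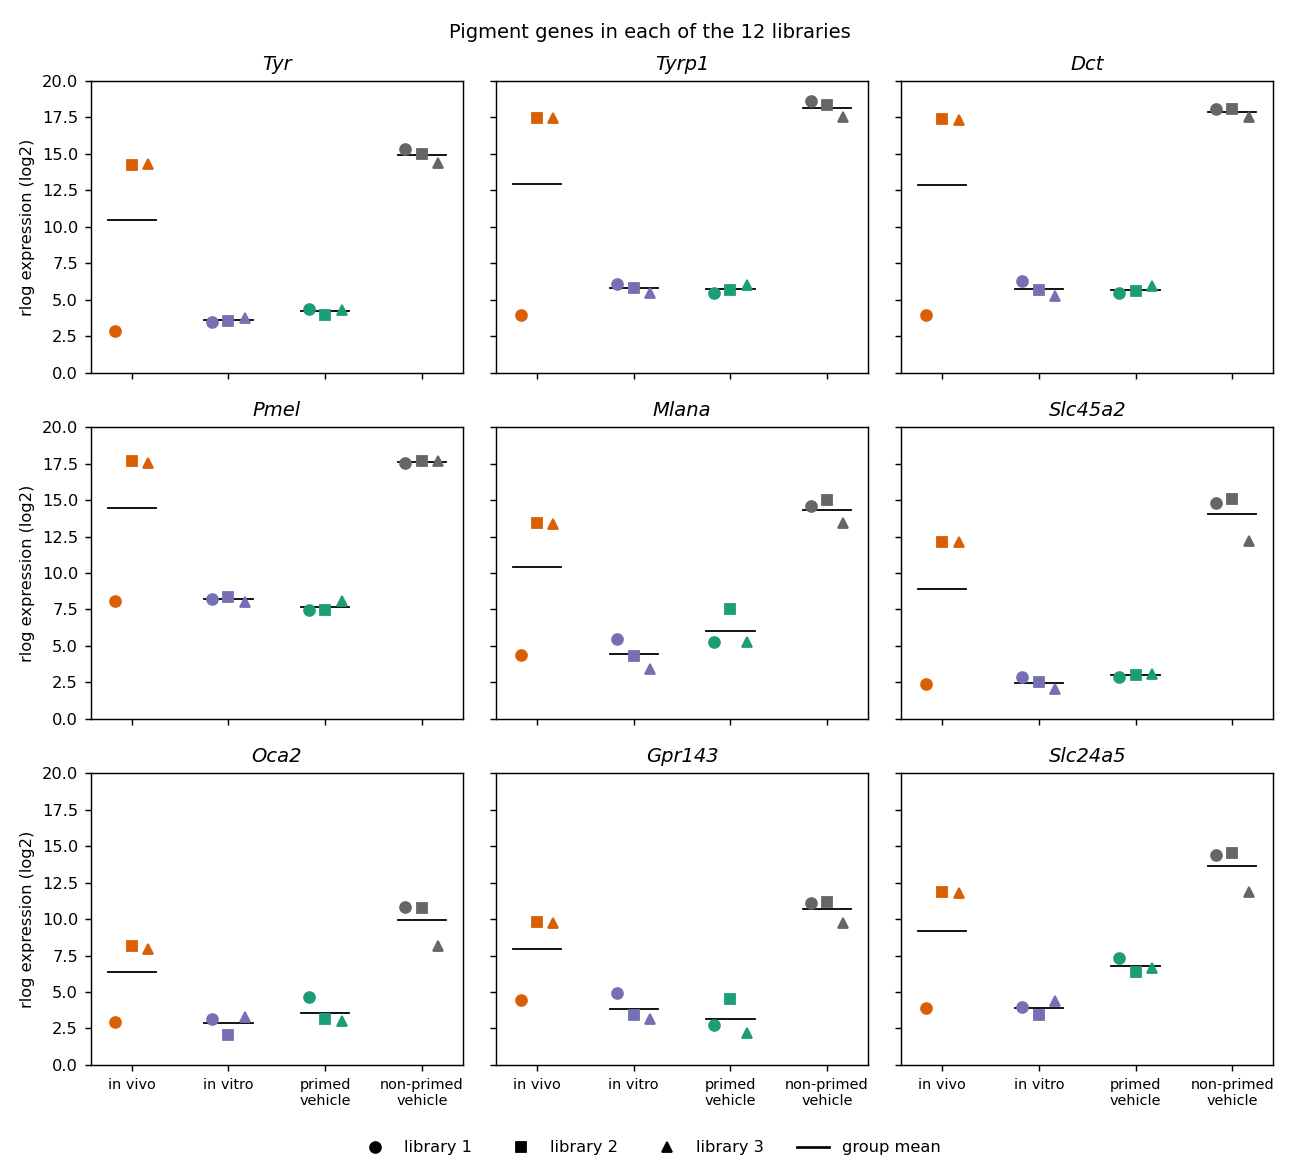
Rlog expression (log2) of the 9 pigment genes in each library by group, with symbols for library number and a black line for the group mean. In vivo library 1 sits with the in vitro and primed vehicle libraries in every panel, and in vivo libraries 2 and 3 sit near non-primed library 3.

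Tyr (chromosome 7, 87424771 to 87493512, GRCm38) encodes tyrosinase, the rate-limiting enzyme of melanin synthesis. Its rlog values were 2.84, 14.24 and 14.30 in in vivo libraries 1, 2 and 3, against 4.40, 3.94 and 4.30 in primed vehicle. In the non-primed vehicle libraries Tyr stood at 15.36, 15.03 and 14.39, and in the in vitro libraries at 3.45, 3.56 and 3.75. In vivo library 1 was the lowest of all 12 libraries, so the in vivo and primed vehicle groups overlapped. Their means differed by 6.24 ± 2.39 log2 units (n = 3 per group, SE from the fit of all 12 libraries). A fit of these 6 libraries alone gave an SE of 3.17.

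Tyrp1 (chromosome 4, 80834123 to 80851719) encodes a tyrosinase-related enzyme that also stabilises tyrosinase. Tyrp1 stood at 3.98, 17.45 and 17.44 in the in vivo libraries, against 5.46, 5.66 and 6.03 in primed vehicle, and at 6.10, 5.80 and 5.47 in vitro. Non-primed libraries had Tyrp1 values of 18.62, 18.37 and 17.56, all above every primed vehicle library. Dct (chromosome 14, 118012790 to 118052244), which encodes dopachrome tautomerase, took the same course. Its values were 3.94, 17.40 and 17.34 in vivo and 6.29, 5.69 and 5.29 in vitro, against 5.48, 5.58 and 5.96 in primed vehicle. In the non-primed libraries Dct stood at 18.07, 18.06 and 17.51. Primed vehicle minus non-primed vehicle differences were -10.71 ± 2.39 for Tyr, -12.46 ± 2.82 for Tyrp1 and -12.21 ± 2.81 for Dct (log2 units, n = 3 per group, SE from the fit of all 12 libraries). That SE takes in the spread within the in vivo group, and a fit of the 6 libraries alone gave 0.3, 0.3 and 0.21. The groups did not overlap for any of these enzymes. Over all genes tested, the groups of this comparison did not overlap in 61.7% (33.7% with primed vehicle higher, 28.0% with it lower).

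Pmel (chromosome 10, 128704195 to 128720238) encodes the structural protein of the melanosome fibrils. Pmel rlog values were 8.11, 17.66 and 17.56 in vivo, 8.24, 8.35 and 8.01 in vitro, 7.47, 7.49 and 8.10 in primed vehicle, and 17.57, 17.65 and 17.71 in non-primed libraries. The 5 high libraries lay within a span of 0.15 log2 units, the tightest of the 9 genes. Pmel was also the only one of the 9 genes in which in vivo and primed vehicle libraries did not overlap, because in vivo library 1 lay just above the highest primed vehicle library. Over all genes tested, 49.1% did not overlap in that comparison (22.7% with in vivo higher, 26.4% with it lower). The annotated start of Pmel overlaps the start of Cdk2, a cell cycle kinase gene on the opposite strand. Cdk2 stood at 11.33, 15.04 and 14.99 in in vivo libraries 1 to 3, 11.22 to 11.38 in vitro, 11.35 to 11.69 in primed vehicle and 14.70 to 15.02 in non-primed libraries. The end of Pmel overlaps Dgka, also on the opposite strand. Dgka stood at 10.98, 9.02 and 9.13 in in vivo libraries 1 to 3, 10.50 to 11.39 in vitro, 9.33 to 11.52 in primed vehicle and 8.80 to 9.17 in non-primed libraries. The strand setting of the counting is not given in the sources used here, and the part of shared reads in the low Pmel values was not tested. Mlana (chromosome 19, 29697824 to 29708634) encodes MART-1, a melanosome protein that binds PMEL. It stood at 4.41, 13.43 and 13.35 in vivo, 5.5, 4.33 and 3.41 in vitro, 5.28, 7.51 and 5.28 in primed vehicle, and 14.58, 14.99 and 13.43 in non-primed libraries. Primed vehicle library 2 was the highest of the low values of Mlana.

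The transporter and receptor genes made the same split. Slc45a2 (chromosome 15, 11000721 to 11029233), whose product acts on melanosome pH, had rlog values of 2.40, 12.15 and 12.11 in vivo and 2.88, 2.52 and 2.05 in vitro. Its values were 2.89, 3.02 and 3.09 in primed vehicle, against 14.78, 15.10 and 12.22 in non-primed libraries. Non-primed library 3 thus stood nearer to in vivo 2 and 3 than to its own group. Oca2 (chromosome 7, 56239760 to 56536518), the gene of the pink-eyed dilution locus, encodes a melanosome membrane protein that carries chloride. It stood at 2.97, 8.17 and 7.93 in vivo, 3.18, 2.08 and 3.30 in vitro, 4.65, 3.13 and 2.98 in primed vehicle, and 10.85, 10.75 and 8.14 in non-primed libraries. Slc24a5 (chromosome 2, 125068124 to 125088677) encodes a cation exchanger needed for normal pigment. Slc24a5 values were 3.87, 11.85 and 11.80 in vivo, 3.97, 3.40 and 4.39 in vitro, 7.30, 6.38 and 6.62 in primed vehicle, and 14.42, 14.56 and 11.87 in non-primed libraries. All primed vehicle libraries lay above in vivo library 1 and above every in vitro library in this gene. Gpr143 (chromosome X, 152781921 to 152808646), which encodes the receptor mutated in ocular albinism, stood at 4.44, 9.77 and 9.71 in vivo, 4.94, 3.43 and 3.15 in vitro, 2.71, 4.53 and 2.17 in primed vehicle, and 11.08, 11.15 and 9.76 in non-primed libraries. Means of the in vivo group hide this split: that of Slc45a2 was 8.89 ± 5.62 and that of Gpr143 7.97 ± 3.06 (SD, n = 3), values that no in vivo library held. In vivo minus primed vehicle differences were 7.24 ± 2.82 for Tyrp1, 7.22 ± 2.81 for Dct, 6.76 ± 1.98 for Pmel, 5.89 ± 2.12 for Slc45a2 and 4.83 ± 1.29 for Gpr143 (log2 units, n = 3 per group, SE from the fit of all 12 libraries). They were smaller for Mlana (4.38 ± 1.99), Oca2 (2.77 ± 1.28) and Slc24a5 (2.40 ± 1.77). Primed vehicle minus non-primed vehicle differences were -9.96 ± 1.98 for Pmel, -8.32 ± 1.99 for Mlana, -11.03 ± 2.12 for Slc45a2, -6.32 ± 1.28 for Oca2, -7.53 ± 1.29 for Gpr143 and -6.85 ± 1.77 for Slc24a5. Those groups did not overlap in any of the 9 genes. Fits of the 6 libraries compared gave SEs of 0.19 to 0.86 over the 9 genes for that comparison. For in vivo minus primed vehicle they gave 1.49 to 3.73. The differences of both comparisons chose the genes, and nothing is read from them beyond their size.

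Levels can be set side by side between genes only per length, so the log2 of the annotated exon length in kilobases was subtracted from each rlog value. On this scale Pmel (16.46) and Tyrp1 (15.95) led in in vivo library 2, ahead of Dct (14.84), Mlana (13.35) and Tyr (11.41). Slc24a5 (10.63) and Slc45a2 (10.58) followed there, with Gpr143 at 8.77 and Oca2 at 6.18. In vivo library 3 and non-primed library 3 had the same order. In non-primed library 1 Tyrp1 (17.12) came before Pmel (16.37), and Tyr (12.53) came after Slc45a2 (13.21) and Slc24a5 (13.20). Non-primed library 2 gave the same order as library 1, with Tyrp1 at 16.87, Pmel at 16.45, Slc45a2 at 13.53, Slc24a5 at 13.34 and Tyr at 12.20. The order among the 5 high libraries thus differed in the places of Tyrp1 against Pmel and of Tyr, Slc24a5 and Slc45a2 against each other.

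In the pigment genes those 5 libraries fell into closer sets that crossed the labels. Over the 9 genes the root-mean-square difference, a typical distance between a pair of libraries in log2 units, was 0.08 between in vivo 2 and non-primed 3, 0.13 between in vivo 3 and non-primed 3, and 0.10 between in vivo 2 and 3. Between non-primed libraries 1 and 2 it was 0.23, whereas non-primed library 3 stood 1.70 and 1.77 away from them. Over all genes tested, 70.1% lay within 0.2 log2 units between in vivo 2 and non-primed 3, 75.8% between in vivo 2 and 3, and 42.0% between non-primed 1 and 2. Library 3 of the non-primed vehicle group shared 23.5% and 23.8% of genes at that tolerance with libraries 1 and 2. By root-mean-square difference over all genes tested, in vivo 2 and 3 stood 0.78 and 0.86 away from non-primed 3. In vivo 2 and 3 stood 0.32 apart on that measure, and non-primed 1 and 2 stood 0.51 apart. Some genes thus differed widely between in vivo 2 and non-primed 3, such as Dcn with 11.47 and 5.51. In vivo library 1 was closest to the in vitro libraries, with distances of 1.16, 1.00 and 0.95 over the 9 genes against 9.89 and 9.84 to in vivo libraries 2 and 3. No label names a batch or a shared source for these libraries.

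The distance between non-primed library 3 and libraries 1 and 2 of its group differed from gene to gene. Slc45a2 was 2.57 and 2.89 log2 units higher in libraries 1 and 2, Oca2 2.71 and 2.61, and Slc24a5 2.55 and 2.70. The differences were 0.96 and 0.63 for Tyr, 1.06 and 0.81 for Tyrp1, and 0.56 and 0.55 for Dct. Gpr143 (1.32 and 1.39) and Mlana (1.15 and 1.56) lay between these, and Pmel was lower in libraries 1 and 2 by a small margin (-0.15 and -0.07). In vivo libraries 2 and 3 differed from non-primed library 3 by no more than 0.21 in any of the 9 genes. These are differences between single libraries, with no test.

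**Figure D3:**
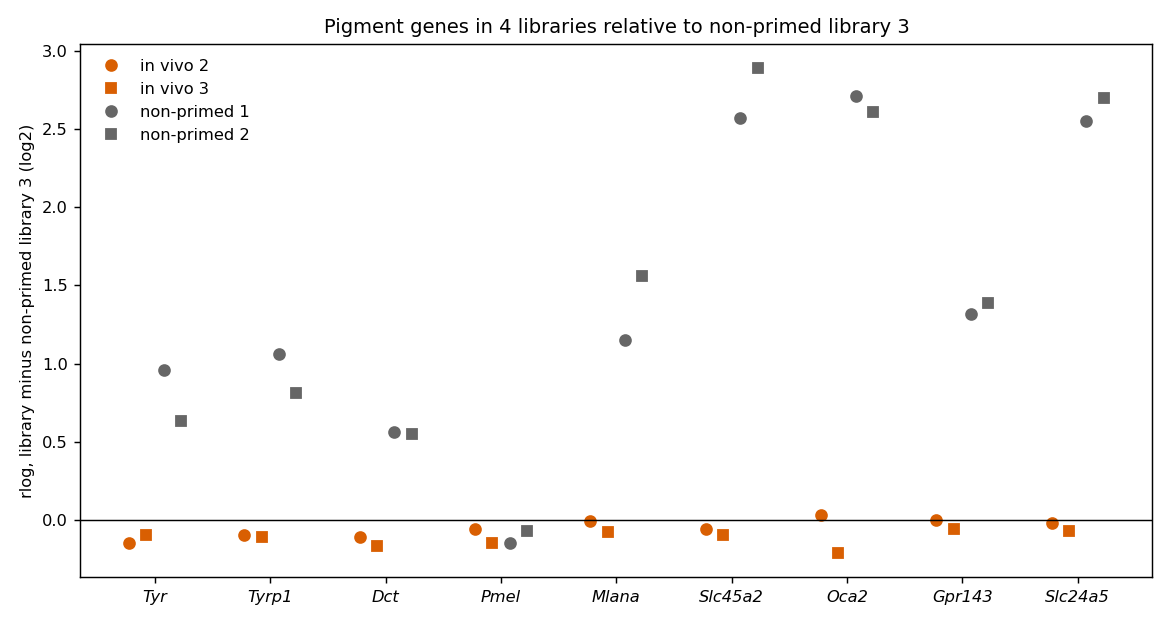
Rlog value of each pigment gene in 4 libraries minus its value in non-primed library 3 (log2 units), 1 point per library. In vivo libraries 2 and 3 (orange) lie at 0.03 or just below zero in every gene, while non-primed libraries 1 and 2 (grey) range from -0.15 in Pmel to 2.89 in Slc45a2.

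The in vitro group was set against primed vehicle cells to ask about the inhibitor in culture, the comparison in which every library was low in these genes. None of the 9 genes passed in the fit of all 12 libraries (limma, Benjamini-Hochberg adjusted over 16453 genes, call at an adjusted p under 0.05), and none had an unadjusted p under 0.05. Of all genes tested, 4.50% passed. Slc24a5 had the largest difference of the 9, -2.85 log2 units, with an SE of 1.77 and an adjusted p of 0.365. Its SD was 0.50 within the in vitro group and 0.48 within the primed vehicle group, against 4.59 within the in vivo group, which shares its spread with the others in this fit. When these 6 libraries were fitted alone, the SE was 0.37 and Slc24a5 fell (limma adjusted p = 0.00348). It was lower in all 3 in vitro libraries than in any primed vehicle library. Leaving out each of the 6 libraries in turn in that fit gave differences of -3.09 to -2.58 and adjusted p-values of 0.00418 to 0.0183. The 6-library fit called 30.3% of all genes (13.4% higher, 16.9% lower), so a call was common there. The 3′ part of Slc24a5 overlaps Myef2 on the opposite strand, which stood at 11.80 to 11.98 in vitro and 11.99 to 12.30 in primed vehicle, and the part of shared reads was not tested.

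The other 8 genes did not pass in either fit. Tyr differed by -0.63 ± 0.25 in the 6-library fit (SE, adjusted p = 0.103, limma), with groups that did not overlap and in vitro lower. Slc45a2 lay between 2.05 and 3.09 in these 6 libraries, about the level of the filter, and its difference of -0.52 is given with no direction drawn. Across all genes 48.4% did not overlap in this comparison (25.7% with in vitro lower). Tyrp1 (0.07 ± 0.27) and Dct (0.08 ± 0.32) showed the smallest differences, and both turned negative when in vitro library 1 or primed vehicle library 1 was left out. Mlana differed by -1.61 ± 0.76, Oca2 by -0.73 ± 0.55, Gpr143 by 0.70 ± 0.72 and Pmel by 0.51 ± 0.23, all with overlapping groups. Without primed vehicle library 3, Pmel passed in the 6-library fit at 0.72 ± 0.20 (adjusted p = 0.0495, limma). The regularized log pulls low values of a gene towards its mean, so differences between weakly expressed values are understated.

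**Figure D4:**
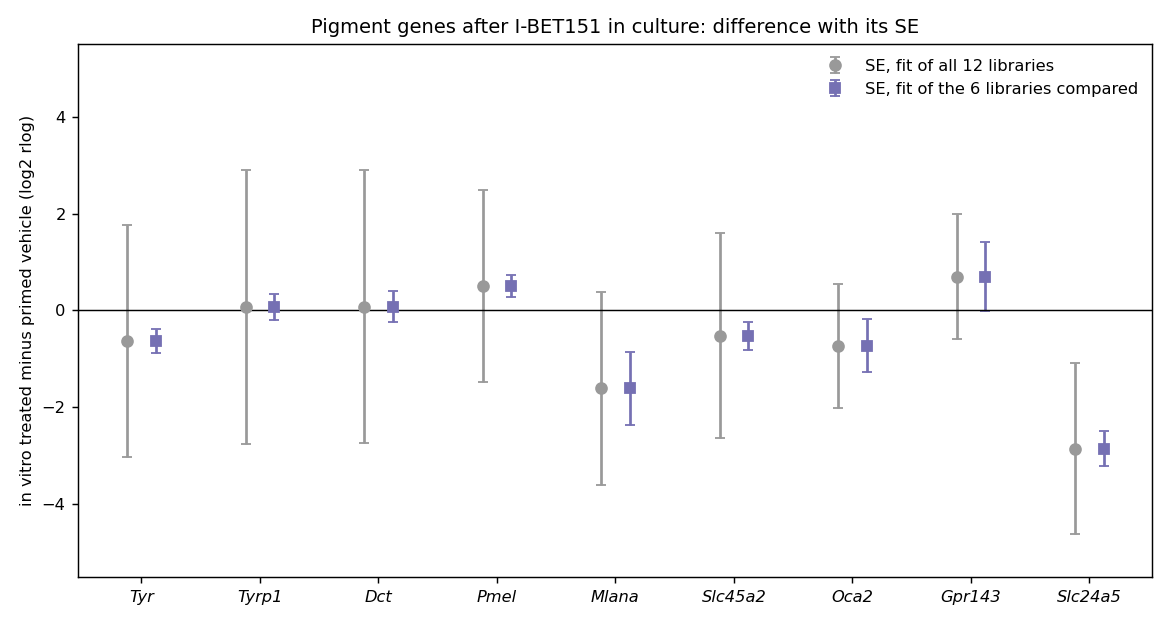
Difference in rlog (log2) between in vitro treated and primed vehicle libraries for each pigment gene, with bars for 1 SE from the fit of all 12 libraries (grey) and of the 6 compared (purple). Slc24a5, at -2.85, is the only gene called in the fit of 6 libraries, and Tyrp1 and Dct sit at 0.07 and 0.08.

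Other genes of melanosome building and transport were followed in a list of 33, all of which were tested. This list and those below were chosen with earlier results of these data known. Their calls in vivo and in primed against non-primed vehicle are therefore no separate evidence of the split in pigment genes. In vivo treated against primed vehicle, 9 rose and 6 fell, a median of 0.22 log2 units against -0.05 over all genes, of which 39.7% were called (17.9% higher, 21.8% lower). Rab38, a small GTPase that delivers enzymes to melanosomes, rose by 4.87 ± 1.2 (SE, adjusted p = 0.0147, limma). Mcoln3, a cation channel of endosomes, rose by 3.74 ± 1.28, Atp7a, the copper pump that loads tyrosinase, by 1.97 ± 0.31, and Hps3, a subunit of the sorting complex BLOC-2, by 1.6 ± 0.24. Slc7a11, the cystine transporter (-4.33 ± 0.89), fell most, followed by Rab32 (-2.48 ± 0.60), a close relative of Rab38, Tpcn2 (-1.01 ± 0.27), an endolysosomal channel, and Cd63 (-0.88 ± 0.23), a tetraspanin that sorts PMEL. Rab38 stood at 8.42, 14.25 and 14.28 in in vivo libraries 1 to 3, and at 6.92 to 8.0 in primed vehicle. The split was 11 rises and 4 falls with median-centred libraries, and 11 and 5 with quantile normalization. The count of called genes depended on the in vivo libraries, with 23 of the 33 called without in vivo library 1, 7 without library 2 and 7 without library 3. Calls over all 16453 genes moved the same way in these runs, at 9960, 2482 and 2434. In the fit of the 6 libraries alone, 9 were called (3949 of all 16453 genes), and Rab38, Mcoln3, Cd63 and Tpcn2 were not among them. Without in vivo library 2 or 3, the calls of Rab38, Mcoln3, Rab32, Tpcn2 and Cd63 were lost (limma adjusted p of 0.0557 to 0.158). That of Mcoln3 was also lost without any primed vehicle library (0.0812 to 0.0982), that of Tpcn2 without primed vehicle library 2 (0.0516) and that of Cd63 without library 3 (0.0576). Without in vivo library 1 Mcoln3 differed by 5.67, and with quantile normalization Cd63 by -0.51.

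In the same list, primed vehicle against non-primed vehicle gave 20 falls and 6 rises, a median of -0.70 against 0.05 over all genes, of which 51.8% were called (28.9% higher, 22.9% lower). Trpm1, an ion channel gene of melanocytes, fell by 8.62 on the log2 scale (SE 1.75, adjusted p = 0.00348, limma). Its profile and that of Mc1r were among the 12 nearest to the pigment genes (below), so their calls repeat that split. Rab38 fell by 7.0, Mcoln3 fell by 6.83 and Bace2, which encodes a protease that cuts PMEL, fell by 5.46. Slc7a11 rose by 3.80 ± 0.89, Rab32 by 2.04 ± 0.60, Tpcn2 by 1.05 ± 0.27 and Cd63 by 0.99 ± 0.23. Cd63 differed by 0.43 with quantile normalization, and the call of Rab32 was lost without non-primed library 3 or primed vehicle library 2 (limma adjusted p = 0.0535 and 0.0533). Trpm1 also showed the distance within the non-primed group, at 13.36, 14.05 and 11.47, with 11.37 and 11.28 in in vivo libraries 2 and 3. Rab27a, the GTPase that tethers melanosomes to actin motors, stood at 13.52, 13.60 and 10.27 in non-primed libraries and at 10.24 and 10.23 in in vivo libraries 2 and 3. Both comparisons share the primed vehicle libraries. Without non-primed library 3, 20 genes fell and 4 rose (3628 and 4413 of all 16453 genes).

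In culture, 3 of the 33 genes rose and none fell, a median of -0.08 against -0.02 over all genes (4.50% called, 1.74% higher and 2.76% lower). Mfsd12, a transporter of lysosomes and melanosomes, rose by 1.02 ± 0.16 (SE, adjusted p = 0.0132, limma), Hps3 by 1.05 ± 0.24 (adjusted p = 0.0382) and Hps1, a subunit of BLOC-3, by 0.64 ± 0.14 (adjusted p = 0.0326). The list's median was positive after median-centring (0.01) and after quantile normalization (0.02), and 3 genes rose under both. With the replicate number as a block 1 rose, and without a single library at most 2 genes were called, Mfsd12 being lost without in vitro 1 or 2 or primed vehicle 2 or 3 (adjusted p of 0.0594 to 0.0787), Hps1 without any of the 6 libraries compared but in vitro 3 (0.0933 to 0.147) and Hps3 without any of the 6 (0.062 to 0.157). The counts were 0 without in vitro 1 or 2, or without primed vehicle 2 or 3, and 1 without primed vehicle 1. In the fit of the 6 libraries alone, which called 30.3% of all genes, 6 rose and 2 fell, and Atp7a (1.03 ± 0.14) and Myo5a (0.50 ± 0.12), the myosin that moves melanosomes, were among those that rose. Rab17, a GTPase of pigment transfer, and Rab32 were the ones that fell there (-3.19 and -0.52).

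**Figure D5:**
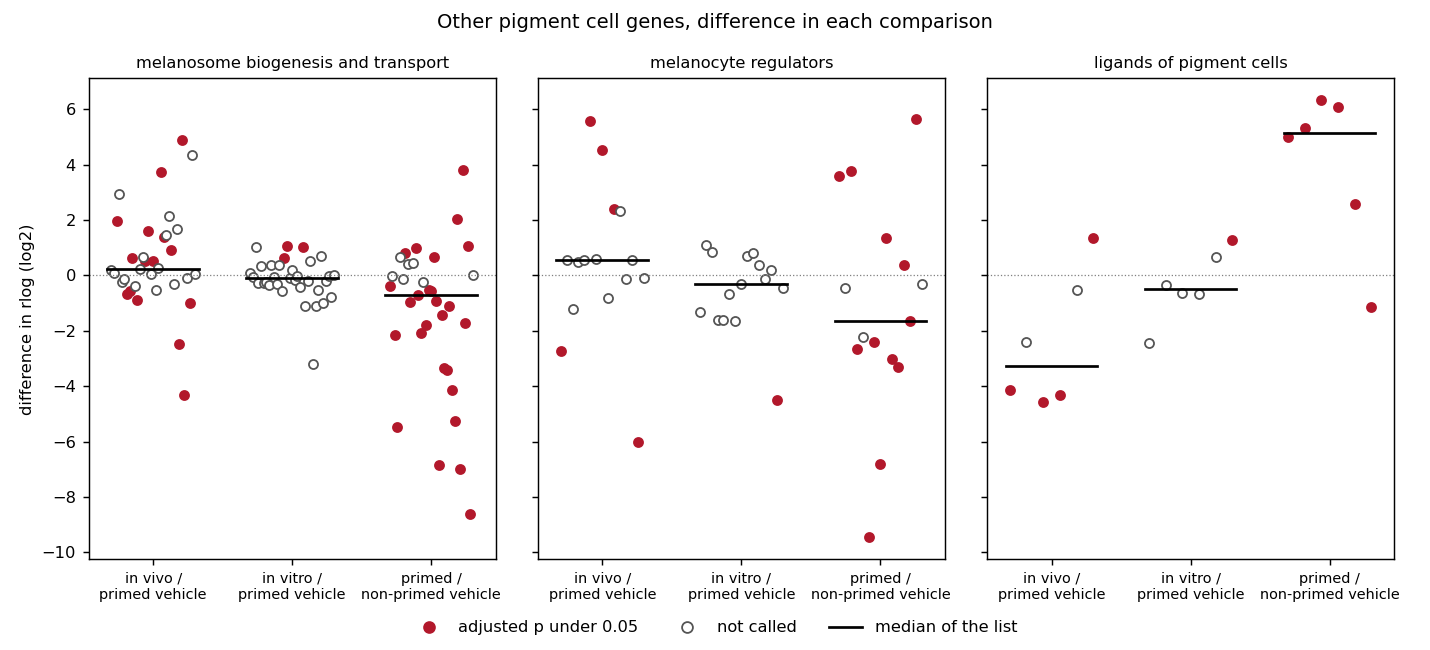
Difference in rlog (log2) of each gene of the pathway lists in the 3 comparisons, with filled points for an adjusted p under 0.05, open points for the rest and a black line at each list's median. The medians of the melanosome list are 0.22 in vivo, -0.08 in vitro and -0.70 in primed against non-primed vehicle.

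Regulators of melanocytes, 15 tested, did not all follow the pigment genes. In vivo against primed vehicle 3 rose and 2 fell (median 0.54 against -0.05 over all genes, of which 17.9% were called higher and 21.8% lower, 39.7% in all). Mc1r, the melanocortin receptor gene, rose by 5.56 ± 1.70 (SE, adjusted p = 0.0278, limma), Pax3 by 4.52 ± 1.44 and Sox10 by 2.38 ± 0.69, while Tfec, a relative of MITF, fell by 6.0 and Ednrb, the endothelin receptor gene, by 2.72. Mitf differed by 0.60 ± 0.85 and Kit, the stem cell factor receptor gene, by 0.49 ± 0.90, and neither passed, although Mitf passed at 1.94 without in vivo library 1. Tfec passed the filter through the primed vehicle libraries (7.66 to 8.81, against no more than 4.55 elsewhere), and with no filter its call stood (limma adjusted p = 0.00135). The libraries of Mc1r, Pax3, Sox10 and Ednrb overlapped between these groups. Their calls were lost in the fit of the 6 libraries (limma adjusted p of 0.0785 to 0.121) and without in vivo library 2 or 3 (0.0857 to 0.17). That of Ednrb (adjusted p = 0.0491) was lost also with either scaling (0.0522 and 0.0792) and without any primed vehicle library (0.0519 to 0.155). Without in vivo library 1, 8 regulators were called, and 1 was called without in vivo library 2 or 3 or without primed vehicle library 2 or 3. Of all 16453 genes, 9960 were called without in vivo library 1, and 2482 and 2434 without in vivo libraries 2 and 3. Without primed vehicle libraries 2 and 3 the all-gene calls were 3820 and 3377. In the fit of the 6 libraries alone 1 regulator was called (3949 of all genes). The split was 4 rises and 1 fall with median-centred libraries, and 5 and 1 with quantile normalization. Primed vehicle against non-primed vehicle gave 7 falls and 5 rises (median -1.66 against 0.05 over all genes, of which 22.9% were called lower and 28.9% higher, 51.8% in all). Mc1r fell by 9.46, Pax3 by 6.82, Tfap2a by 3.30, Sox10 by 3.01, Kit by 2.65 and Mitf by 2.39. Tfec rose by 5.64 ± 0.74, Foxd3 by 3.75 ± 1.42, Ednrb by 3.57 ± 0.98 and Snai2 by 1.34 ± 0.5. Tfec was also called with no filter (limma adjusted p = 0.00114). Foxd3 differed by 2.23 without non-primed library 3 (adjusted p = 0.162), and its call was lost without any primed vehicle library (0.0509 to 0.148). That call was lost also with quantile normalization (0.0593), with no filter (0.0721), with no variance trend (0.0547) and in the fit of the 6 libraries (0.0623). The call of Mitf was lost without any 1 of the 6 libraries compared (0.0612 to 0.0977) and with no filter (0.0593). That of Kit was lost without primed vehicle library 2 or 3 or non-primed library 1 or 2 (0.0793 to 0.11) and with the replicate block (0.0546). That of Snai2 was lost without any 1 of the 6 (0.0547 to 0.132), with no filter (0.0693), with no variance trend (0.0525) and with median-centred libraries (0.0522). Without primed vehicle library 2 or 3, 7 regulators were called in place of 12 (6972 and 6703 of all genes in place of 8523). The rises were 3 and not 5 with median-centred libraries and with quantile normalization.

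The libraries low in pigment transcripts were not equally low in every gene of the lineage. Sox10 and Mitf were lower there than in the libraries high in pigment transcripts, yet stood at 10.17 or more, and Foxd3 was higher there. Mc1r was low, at 4.35, 12.09 and 11.92 in vivo, 2.64 to 3.6 in vitro and 2.84 to 4.46 in primed vehicle, against 13.88, 14.11 and 12.08 in non-primed libraries. Sox10, a transcription factor of melanocytes and Schwann cells, stood at 12.95, 14.50 and 14.49 in in vivo libraries 1 to 3, 11.88 to 13.36 in vitro and 10.17 to 13.04 in primed vehicle, against 14.49 to 14.84 in non-primed libraries. Foxd3, a neural crest factor, stood at 10.92, 6.28 and 7.62 in in vivo libraries 1 to 3, 9.82 to 11.33 in vitro, 8.17 to 10.96 in primed vehicle and 2.70 to 7.38 in non-primed libraries. Mitf stood at 10.31, 14.32 and 14.32 in vivo, 10.61, 10.69 and 10.89 in vitro, 12.06, 12.74 and 12.34 in primed vehicle, and 14.88, 14.97 and 14.46 in non-primed libraries. In culture Mitf differed by -1.65 log2 units with no overlap, which did not pass in the fit of 12 libraries (SE 0.85, adjusted p = 0.273, limma) and passed in that of 6 (SE 0.18, adjusted p = 0.00252). In that comparison Tfec was the 1 regulator called in the fit of 12 (-4.49 ± 0.74, limma adjusted p = 0.0154, and 0.0125 with no filter), which called 4.50% of all genes. The call was lost without in vitro library 1 or 2 or primed vehicle library 2 or 3 (0.0563 to 0.0889). The means of 8 Schwann cell markers, Foxd3 among them, lay between 8.44 and 9.99 in vivo, 9.22 and 10.07 in vitro, 8.76 and 10.25 in primed vehicle and 7.71 and 10.17 in non-primed libraries. These means join markers that went opposite ways. Pmp22, like Foxd3, was higher in the libraries low in pigment transcripts (13.17, 10.25 and 10.26 in in vivo libraries 1 to 3). S100b (8.91, 10.89 and 10.88) and Mbp (8.06, 8.29 and 8.16) were lower there, by a small margin at the closest values. The other markers of that list overlapped. Among 6 markers of the retinal pigment epithelium, which also makes melanin, Rpe65 lay between -0.05 and 1.38 in all 12 libraries, and Rgr and Ttr stayed under 1 in each. Of the other markers in that list, Best1 stood at 6.58, 2.57 and 3.24 in vivo, 6.40 to 7.28 in vitro, 6.33 to 6.87 in primed vehicle and 2.65 to 2.98 in non-primed libraries. Rlbp1 ranged from 3.25 to 6.59 over the 12 libraries, and Lrat stood at 6.26 and 5.42 in non-primed libraries 1 and 2 and at no more than 2.08 in the others.

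Ligands that act on pigment cells were followed in a list of 6 tested genes. Of these, 1 rose and 3 fell in vivo against primed vehicle (17.9% of all genes called higher, 21.8% lower, 39.7% in all). In primed against non-primed vehicle 5 rose and 1 fell (28.9% of all genes higher, 22.9% lower, 51.8% in all). The fit of the 6 libraries alone called 3 in vivo (3949 of all 16453 genes). In culture 1 rose and none fell (1.74% of all genes higher, 2.76% lower), and the fit of 6 called 4 (30.3% of all genes). Fgf7 rose by 6.32 ± 1.19 and Hgf by 6.06 ± 1.10 in primed vehicle, and both fell in vivo, by 4.56 and 4.33 (SE, limma adjusted p of 0.00273 and 0.00244 in primed, 0.016 and 0.0147 in vivo). In in vivo libraries 1 to 3 Fgf7 stood at 12.45, 8.62 and 8.4, against 14.16 to 14.64 in primed vehicle. Hgf stood at 8.57, 4.41 and 4.07, against 9.89 to 10.09. In the fit of the 6 libraries alone the in vivo call of Hgf was lost (limma adjusted p = 0.0514) and that of Fgf7 stood (0.0364). The ligands were not followed through other scalings or the leaving out of libraries. Edn1, which encodes endothelin 1, rose by 4.99 ± 0.74 and Fgf2 by 5.32 in primed vehicle, and Edn1 fell by 4.13 in vivo. Edn1 stood at 6.14, 3.9 and 3.73 in in vivo libraries 1 to 3, against 8.39 to 9.29 in primed vehicle. Pomc, the precursor of melanocortins, rose by 1.36 ± 0.26 in vivo and by 1.27 ± 0.26 in culture (limma adjusted p = 0.00587 and 0.0317) and fell by 1.14 in primed against non-primed vehicle. Fibroblast marker means, given above, moved with these genes, and their part in the differences was not tested.

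The genes whose profile over the 12 libraries was nearest to the mean profile of the 9 pigment genes were ranked by root-mean-square difference after centring each gene on its own mean. Of 16444 genes ranked, Fkbp6 was nearest (0.45 log2 units), followed by Tspan10 (0.60), Pianp and Ptgds (both 0.61), Trpm1 (0.64), Mc1r (0.65) and Foxr2 (0.67). Nup210 and Brs3 (both 0.76), Alx1 (0.84), Btn2a2 and Syt4 (both 0.85) completed the 12 nearest, and the median gene stood at 4.73. Trpm1 and Mc1r were the genes of the pathway lists among them. The pigment genes themselves ranged from 0.71 for Pmel and Slc45a2 to 1.82 for Oca2. Fkbp6, which encodes an immunophilin known from male meiosis, stood at 2.18, 11.83 and 11.72 in vivo, 2.22 to 2.39 in vitro, 2.12 to 3.40 in primed vehicle and 11.89 to 12.54 in non-primed libraries. Tspan10, a tetraspanin gene, took values of 3.28, 11.10 and 10.94 in vivo, 2.75 to 3.89 in vitro, 2.73 to 3.42 in primed vehicle and 13.33, 13.72 and 11.04 in non-primed libraries 1 to 3. Foxr2, Brs3 and Btn2a2 did not place non-primed library 3 below libraries 1 and 2, with 12.39, 12.49 and 12.58 for Foxr2, 10.80, 10.37 and 10.98 for Brs3 and 13.82, 13.10 and 14.08 for Btn2a2.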

How the data were processed

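RNA from 12 libraries (4 groups of 3) was prepared with a stranded mRNA kit, per the labels' protocols. The submitters' processing notes name the build GRCm38 and the tools DESeq2 1.24.0, STAR 2.6.1c, cutadapt 1.18 and featureCounts (Subread 1.6.1). The authors deposited regularized log2 values without counts, so depth and its precision are unknown. Low values are pulled towards a gene's mean by this transformation. From these values, differences were computed with limma 3.58.1 in R 4.3.3 (variance trend, 1 mean per group, all 12 libraries) over 16453 genes with a mean of at least 3, with Benjamini-Hochberg adjustment and a call at an adjusted p under 0.05. SEs of list genes come from that fit unless the fit of 6 libraries is named. They take in the spread within every group. The procedure was run on simulated data with the same spread in every gene and group. The in vivo group here is split, so that run does not vouch for these calls. GENCODE M21 gave names, coordinates and exon lengths. The 9 genes and all lists were chosen with earlier results of these data known. The 9 genes have no test in the comparisons that chose them. From each list, up to 4 called genes per direction with the largest differences were named, with Mitf, Sox10, Mc1r and Kit, the 12 genes nearest in profile and up to 4 markers per cell type. Others (Xist, Rab27a, Rab17, and Myo5a and Atp7a in culture) were chosen after their values were seen. Alternatives were other filters, variance models, scalings, a replicate block, the 6 compared libraries alone and leaving out each library. Of these, the ligand list was given only the 6 libraries alone.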

Additional observations from a re-analysis of the deposited data

How the results depend on the processing

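Primed against non-primed vehicle called 8523 genes and stayed within 1.5 times of that under every alternative run (6703 to 8041 without 1 library). Quantile normalization turned the split of 4752 higher and 3771 lower to 3857 and 5679, and the all-gene median of 0.05 to -0.24. In vivo against primed vehicle called 6530 genes, 3949 in the fit of 6 libraries and 2434 to 9960 without 1 library. Its split of 2945 higher and 3585 lower became 4031 and 2965 with median-centred libraries (median of all genes 0.135) and 4593 and 2966 with quantile normalization (0.186). In vitro against primed vehicle called 741 genes, but 1180 without a filter, 470 with a minimum mean of 5, 1156 with quantile normalization (574 higher, 582 lower), 4982 in the fit of 6 libraries and 12 to 366 without 1 library. Deviations of same-numbered libraries from their group means correlated at -0.43 to 0.37 between groups. In vivo library 1 and non-primed library 3 stand apart from their groups, so these values cannot show whether numbers pair the libraries. With the replicate numbers as a block 8136, 5976 and 173 genes were called for primed, in vivo and in vitro, and 1 gene of the melanosome list in vitro. The melanosome list had 9 calls in vivo in the fit of 6 libraries and 7 to 23 without 1 library, and in vitro 8 in the fit of 6, 0 to 2 without 1 library and 5 to 8 without 1 library in the fit of 6. The regulators had 3 calls in vivo without a filter, 1 in the fit of 6 and 1 to 8 without 1 library, 7 to 10 in primed vehicle without 1 library, and in vitro 0 with a minimum mean of 5, 3 in the fit of 6, 0 to 1 without 1 library and 2 to 4 without 1 library in the fit of 6. Of the 9 pigment genes in vitro, 0 were called without 1 library, 1 in the fit of 6 and 1 to 2 without 1 library in that fit. Signs turned, with no call on the negative side, for Mitf in vivo (-0.07 to 1.94 without 1 library, negative without in vivo 2 or 3), Kit in vivo (-0.01 and -0.05 without in vivo 2 and 3, -0.01 without primed vehicle 2), and, in both fits in vitro, Tyrp1 (-0.09 to 0.23) and Dct (-0.18 to 0.32), negative without in vitro 1 (-0.09, -0.18) and primed vehicle 1 (-0.06, -0.01). The leave-one-out runs of the 6-library fit in vitro were chosen after seeing the data. The cause of these changes was not tested.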
